A study of Mus musculus with 9 samples.

Results

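Among 29745 predicted loci of the mouse genome, 61 had, in macrophages given bacterial lipopolysaccharide (LPS), a mean level at 30 min of 0.676 to 1.24 times the resting level and at 60 min of at least 1.5 times it. A predicted locus is here a gene symbol made of Gm and a number, or one ending in Rik, names given to transcribed regions and gene models with no established function. Levels are CPM, each count scaled by its library's plain total. The loci were chosen by these levels at the 3 times: a locus was taken when its mean at 60 min was at least 1 CPM and at least 1.5 times the mean at 30 min and at 0 min, when its 30 min mean lay above 0.67 times and at most 25% above the 0 min mean, and when each 60 min library lay above each 30 min library. The whole table holds 55450 genes. All 61 loci were among the 2891 predicted loci with enough counts to be tested; 51 carry Gm names and 10 carry Rik names. The choice used the measured values, so their courses over time are given as a description, without a test.

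The cells were IMM, an immortalized mouse macrophage line labelled WT, in 3 libraries per time. The groups were cells before LPS (0 min, the control), cells at 30 min of LPS and cells at 60 min of LPS, with LPS given at 100 ng/mL. All groups are the same cell line, taken 5 passages after thawing, so the libraries carry no variation between animals. Total RNA was sequenced from strand-marking libraries after removal of ribosomal RNA. A group that was kept for 60 min without LPS is not analysed here, so time in the dish and LPS cannot be told apart.

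LPS is sensed by macrophages through Tlr4, which switches on NF-kappaB, AP-1 and MAP kinase signalling and then successive sets of genes. The first to respond are immediate-early genes such as Fos and Zfp36, followed by genes for cytokines and by a later interferon program. Libraries of total RNA also hold unspliced transcripts, and many predicted loci are short stretches annotated inside the introns of coding genes. Reads from such a stretch can come from a transcript of its own or from the unspliced transcript of the coding gene around it, and counts per gene cannot tell these apart.

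Library totals ran from 26867428 to 30402308 counts, so 1 CPM stood for 26.9 to 30.4 counts. The early LPS genes listed for comparison had answered by 30 min, with 13 of 14 tested higher at 30 min than at 0 min by edgeR at an adjusted p under 0.05. Fos averaged 197 CPM at 30 min and 7.44 CPM at 0 min. Of 14 later LPS genes tested, 9 were higher at 60 min than at 30 min. Of the same 14, 8 were already higher at 30 min than at 0 min. Acod1, the enzyme that makes itaconate, averaged 131 CPM at 60 min, 15.2 CPM at 30 min and 1.68 CPM at 0 min. The 6 macrophage markers summed to 1801 to 1886 CPM at 60 min, 1827 to 1865 CPM at 30 min and 1766 to 1846 CPM at 0 min. Markers of B cells, fibroblasts, epithelium and mast cells summed to at most 0.383 CPM in any library. Those of neutrophils summed to 5.51 to 6.89 CPM, of T cells to 2.93 to 3.94 CPM and of endothelium to 1.23 to 2.2 CPM over the 9 libraries, and none of their tested members was called in any comparison.

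The 61 loci together took 215, 230 and 229 CPM at 0 min, 254, 216 and 219 CPM at 30 min and 517, 480 and 498 CPM at 60 min. The 60 min libraries stood clear of both earlier times, and the first 30 min library was the highest of its time; it held the highest 30 min value for 38 of the 61 loci. Mean levels ran from 0.394 to 18.7 CPM at 0 min (median 2.15), from 0.411 to 18.9 CPM at 30 min (median 2.28) and from 1.03 to 43.2 CPM at 60 min (median 4.44). These are low levels: 13 loci stayed under 2 CPM at 60 min and 26 reached 5 CPM, and the weakest rested on 92 counts over its 3 libraries at 60 min. The ratio of the 60 min to the 30 min mean ran from 1.5 to 6.07 with a median of 2.11, and it was 2 or more for 34 loci and 3 or more for 6. Libraries at 30 min overlapped those at 0 min for 54 of the 61 loci. The 7 without overlap were Gm38062 and Gm14221, higher at 30 min, and Gm38236, B230216N24Rik, Gm42994, Gm45206 and Gm45838, lower at 30 min. The share of all genes without such overlap was not counted, and edgeR called 0 of the 61 in this comparison. Nothing is therefore read from these 7. Per kb of annotated exon, the 60 min level ran from 0.348 to 11.0 CPM with a median of 2.06.

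**Figure D1:**
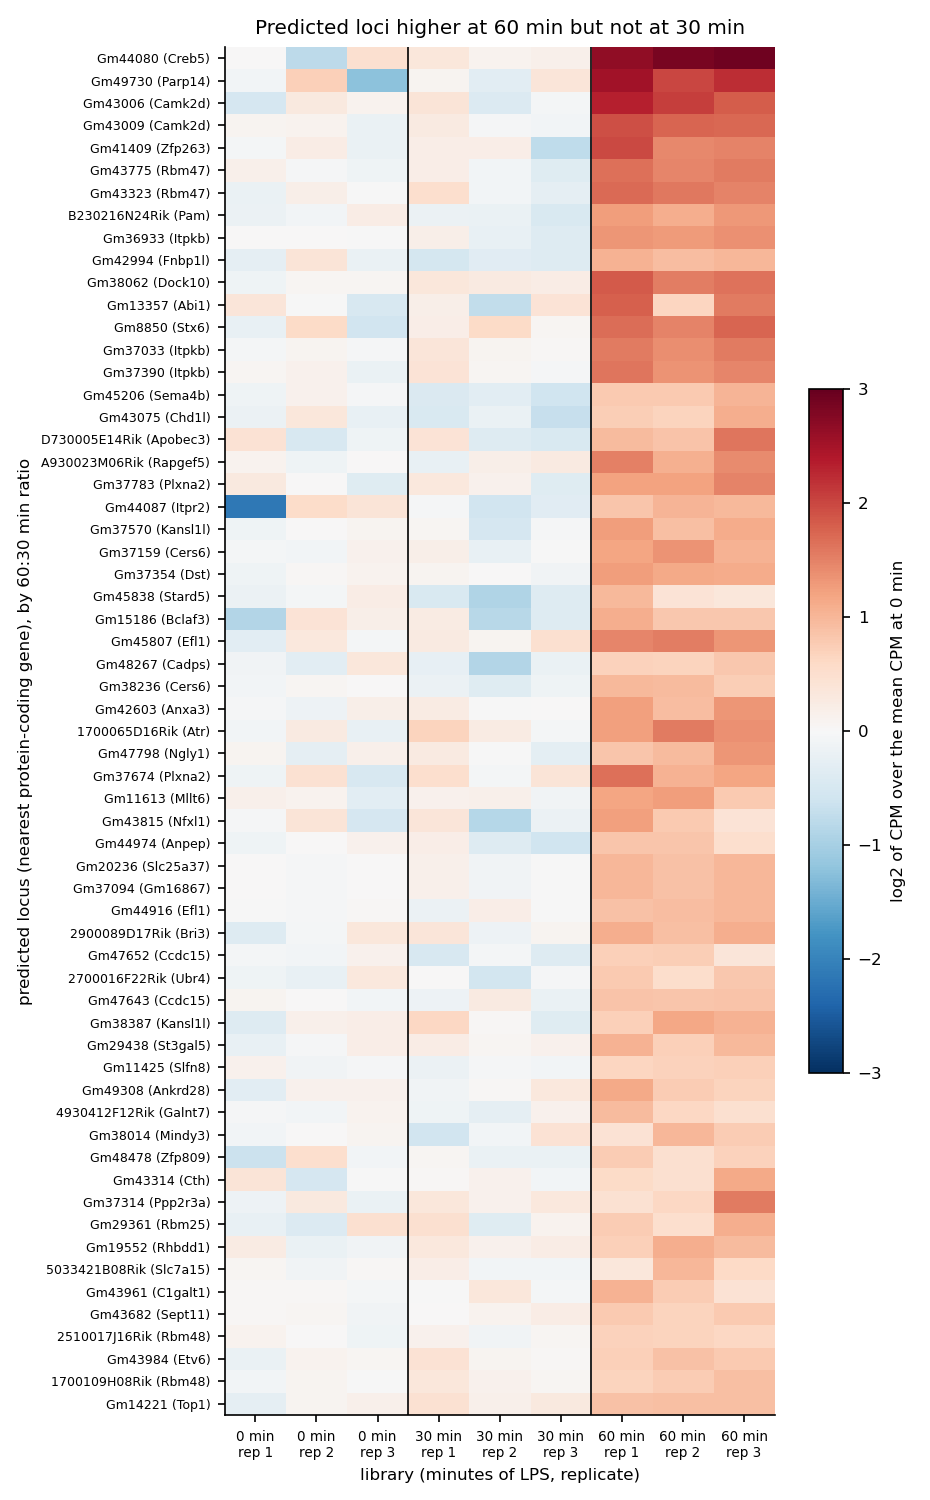
Each row is a predicted locus with its nearest protein-coding gene in brackets, ordered by the ratio of the 60 min to the 30 min mean, and each column is a library (0, 30 and 60 min of LPS, 3 replicates each). Colour is log2 of the CPM over the locus's mean CPM at 0 min. The 3 columns of 60 min are above 0 in all 61 rows, while those of 30 min scatter around 0, as the choice of the loci requires.

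In the edgeR fit, 59 of the 61 loci were called higher at 60 min than at 30 min and 59 higher at 60 min than at 0 min, while 8.87% and 13.3% of all 14246 genes tested were called higher in these comparisons. At 30 min against 0 min, edgeR called 0 of the 61, with 4.84% of all genes called higher and 3.35% lower; 7 loci had an unadjusted p under 0.05 there, 4 higher and 3 lower, and DESeq2 and limma-voom called 0. These comparisons chose the loci, so the counts restate the choice. Gm43815 and Gm37314, at 1.03 and 1.13 CPM the 2 with the lowest 60 min mean, were the ones not called at 60 min against 30 min. The median log2 change was 1.12 at 60 min against 30 min and 0.05 at 30 min against 0 min. The authors' deposited tables list all 61 loci, with log2 changes of 0.66 to 2.87 at 60 min and -0.55 to 0.34 at 30 min. By their DESeq2 adjusted p under 0.05, 53 of the 61 passed at 60 min and 0 at 30 min.

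Just inside the upper limit on the 30 min to 0 min ratio stood 1700065D16Rik at 1.243, Gm14221 at 1.239 and Gm37674 at 1.228. Just outside stood Gm37645, higher in a later decimal than the limit, Gm16181 at 1.282 and Gm43005 at 1.303, and Gm37645 and Gm43005 lie in the same host genes as 3 of the loci taken. At the lower limit on the same ratio, Gm45838 (0.6759), Gm45206 (0.7342) and Gm43075 (0.7375) were inside, and Gm10388 (0.5911) and Gm37067 (0.473) were the only loci outside that met the rest of the rule. For the 1.5-fold limit on the 60 min to 30 min ratio, Gm14221 (1.502), 1700109H08Rik (1.516) and Gm43984 (1.521) were inside, and Gm49463 (1.482), Gm36527 (1.471) and Gm44116 (1.453) were outside. At the limit of 1 CPM at 60 min, Gm43815 (1.029), Gm37314 (1.131) and Gm15186 (1.161) were inside, and E230025N22Rik (0.9825), Gm47484 (0.959) and Gm10327 (0.9583) were outside.

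Most of the loci were annotated as single exons inside introns of coding genes. In GENCODE M21 on build GRCm38, 43 of the 61 (70.5%) had the class TEC, given to single-exon regions with transcript evidence that still await laboratory follow-up. A further 6 were antisense transcripts, 4 processed pseudogenes, 3 lincRNAs, 2 processed transcripts and 2 sense-intronic transcripts, and 1 (1700109H08Rik) was classed as protein-coding. A single exon made up 51 of the 61 (83.6%), and 47 (77.0%) overlapped a protein-coding gene on the same strand. Of these 47, 40 lay wholly within an intron and 7 overlapped an exon; another 9 loci overlapped a coding gene on the opposite strand, and 5 overlapped none. The 47 sat in 38 host genes, and the 61 had 51 nearest coding genes in all, 9 of which were shared by more than 1 locus.

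The same description was made for 2 other sets of tested predicted loci, and no test was run between the sets because measured values chose 2 of them. A set of 85 loci was already at least 1.5 times higher at 30 min than at 0 min with no overlap between libraries, and the remaining 2745 were neither. The class TEC held 44.7% of the loci higher by 30 min and 32.9% of the remaining loci. Same-strand overlap with a coding gene was found for 49.4% of the loci higher by 30 min and 41.8% of the remaining loci. Within their same-strand hosts, the loci higher only after 30 min began a median of 35.8 kb from the host's annotated start (quartiles 14.1 and 50.3 kb). Loci higher by 30 min began a median of 19.9 kb from it (quartiles 6.1 and 33.6 kb), and the remaining loci 29.1 kb (quartiles 8.5 and 85.4 kb). Median host lengths were 98.3, 83.3 and 93.0 kb in the same order. These contrasts moved with the mix of classes. Among TEC loci alone, same-strand overlap was 93.0% for the loci higher only after 30 min, 84.2% for those higher by 30 min and 74.1% for the remaining loci, and the median distances were 33.9, 17.3 and 38.7 kb, so the loci higher only after 30 min then began nearer the host start than the remaining loci. Of the 47 loci in same-strand hosts, 11 began within 10 kb of the host start, 30 between 10 and 75 kb, and 6 further in.

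**Figure D2:**
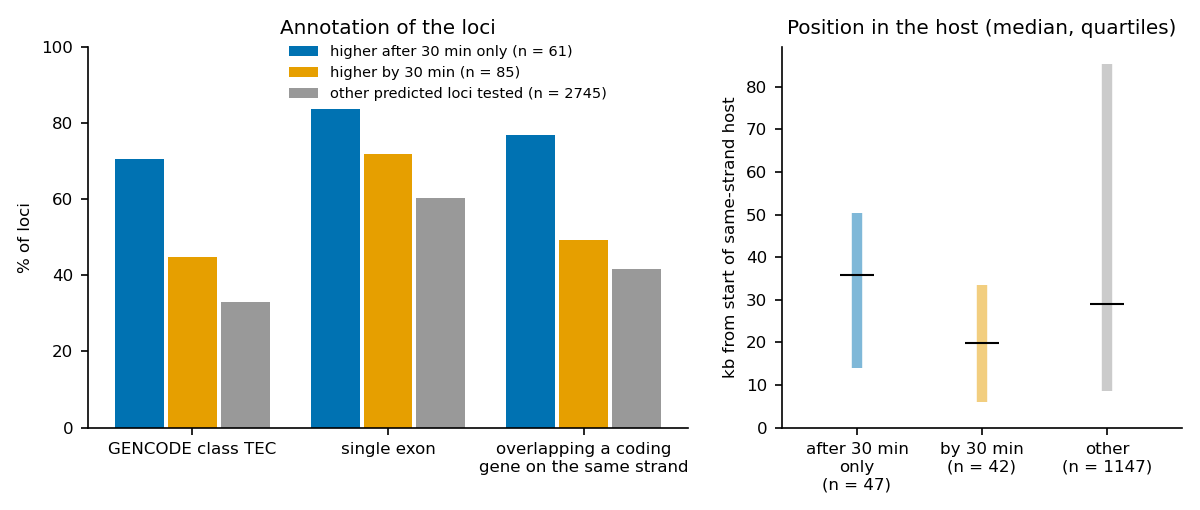
Left, bars give the percentage of loci with the GENCODE class TEC, with a single exon and with a same-strand coding gene over them, for the 61 loci higher after 30 min only, the 85 higher by 30 min and the 2745 other predicted loci tested. Right, the distance in kb from the annotated start of the same-strand host, with the median as a line and the quartiles as a bar; the medians are 35.8, 19.9 and 29.1 kb.

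An RNA that is cut and polyadenylated at its own end usually carries AATAAA or ATTAAA shortly before that end. Searched on the transcript strand in the last 50 bases of the GENCODE M21 transcripts, either hexamer stood in 14 of the 43 TEC loci (32.6%), and in 257 of the 941 other tested predicted TEC loci (27.3%). The ends of a locus in Camk2d and a locus in Dock10 show a match in capitals. The end of the locus with the most counts, in Itpkb, has none and is shown for contrast. A match is a description of the letters and not a mapped site.
Gm43009, chr3:126647977-126648026, plus strand: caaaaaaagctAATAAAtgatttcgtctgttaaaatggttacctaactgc
Gm38062, chr1:80728809-80728858, minus strand: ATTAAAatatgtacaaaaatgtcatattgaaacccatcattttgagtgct
Gm37033, chr1:180364949-180364998, plus strand: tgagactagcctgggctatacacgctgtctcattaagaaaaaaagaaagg

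Itpkb, which phosphorylates the second messenger inositol trisphosphate, held 3 of the loci within its introns on chromosome 1. Gm37033 (chr1:180357649-180364998, 27.2 kb from the Itpkb start) had 14.5, 16.1 and 14.9 CPM at 0 min, 19.6, 16 and 15.7 CPM at 30 min and 44.6, 39.8 and 45.1 CPM at 60 min. Gm36933 (chr1:180376444-180379514, 46.0 kb in) had 6.25, 6.29 and 6.21 CPM at 0 min, 7.11, 5.36 and 4.81 CPM at 30 min and 15.6, 15.1 and 16.2 CPM at 60 min. Gm37390, between them at 42.2 kb, had 2.12, 2.25 and 1.78 CPM at 0 min, 2.72, 2.14 and 1.99 CPM at 30 min and 6.24, 5.2 and 5.63 CPM at 60 min. In all 3 the 30 min libraries overlapped those of 0 min and the 60 min libraries stood apart, with ratios of the 60 min to the 30 min mean between 2.49 and 2.71. Itpkb itself averaged 130 ± 3.33 CPM at 60 min, 94.6 ± 4.11 CPM at 30 min and 85.7 ± 0.832 CPM at 0 min (SD, n = 3 each). It rose at 60 min against 30 min by 0.50 ± 0.04 on the log2 scale (SE; edgeR adjusted p = 6.06e-07), with every 60 min library above every 30 min library. Its smaller rise at 30 min against 0 min (log2 0.17, adjusted p = 0.0146) lost its call when the first 0 min or the first 30 min library was left out (adjusted p = 0.0541 to 0.0686).

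Camk2d encodes the delta subunit of a calcium/calmodulin-dependent protein kinase. Gm43009 (chr3:126644461-126648026, 48.2 kb from its start) had 9.64, 9.72 and 7.95 CPM at 0 min, 11.0, 8.89 and 8.62 CPM at 30 min and 34.8, 30.6 and 30.1 CPM at 60 min. Gm43006 (chr3:126657722-126659323, 61.4 kb in) had 1.79, 3.11 and 2.75 CPM at 0 min, 3.31, 1.93 and 2.43 CPM at 30 min and 12.8, 10.8 and 9.02 CPM at 60 min. Both were near level over the first 30 min, as the rule required, and then stood at 3.35 and 4.26 times their 30 min mean. The Camk2d gene count hardly moved: it averaged 126 ± 0.624 CPM at 60 min and 126 ± 2.14 CPM at 30 min (SD, n = 3 each), a log2 change of 0.04 ± 0.04 (SE; edgeR adjusted p = 0.591).

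Another 5 tested predicted loci lie in Camk2d. The rule was applied to them too and left them out by their values, so which of them differ from the chosen pair is in part fixed by the choice. The 2 nearer its start than Gm43009 were already higher at 30 min. Gm43011, 3.7 kb in, averaged 34.4 ± 3.03 CPM at 30 min and 20.9 ± 1.05 CPM at 0 min, a log2 change of 0.75 ± 0.07 (edgeR adjusted p = 3.19e-06), and it rose again at 60 min against 30 min by 1.42 ± 0.06 (adjusted p = 4.86e-09). Gm43010, 29.6 kb in, rose by 0.47 ± 0.11 at 30 min against 0 min (adjusted p = 0.02) and by 1.70 ± 0.10 at 60 min against 30 min (adjusted p = 7.31e-08). The earlier of these calls for Gm43010 was lost when the first or the third 0 min or the first 30 min library was left out (adjusted p = 0.0609 to 0.0755). Gm43005, at 66.1 kb and just past the chosen pair, rose at 60 min against 30 min by 1.77 ± 0.36 (adjusted p = 0.00337) and was not called at 30 min against 0 min (log2 0.41, adjusted p = 0.667). Deeper in, Gm42515 at 141.2 kb rose by 0.45 ± 0.10 at 60 min against 30 min (adjusted p = 0.00632), and Gm42514 at 149.8 kb changed by 0.27 ± 0.18 (adjusted p = 0.385).

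Rbm47, an RNA-binding protein that takes part in RNA editing and splicing, held a pair of loci in the middle of its 156.6 kb. Gm43323 (chr5:66080209-66084466, 88.7 kb in) had 7.48, 9.61 and 8.47 CPM at 0 min, 12, 8.02 and 7.1 CPM at 30 min and 27.6, 25.6 and 24 CPM at 60 min. Gm43775 (chr5:66069501-66072895, 100.2 kb in) had 6.29, 5.54 and 5.17 CPM at 0 min, 6.48, 5.39 and 4.42 CPM at 30 min and 17.7, 15.7 and 16.7 CPM at 60 min. Their 60 min means were 2.84 and 3.08 times the 30 min means, with no overlap. Gm43323 shares bases with an annotated Rbm47 exon, so its reads may be split with Rbm47. Rbm47 rose at 60 min against 30 min by 0.30 ± 0.04 (edgeR adjusted p = 0.000124), with 80.1 ± 2.13 CPM at 60 min and 66.9 ± 1.53 CPM at 30 min.

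Cers6, a ceramide synthase, held a pair of loci near its start and 4 other tested ones further along its 252.8 kb. Gm37159 (chr2:68891366-68894970, 29.9 kb in) had 6.7, 6.61 and 7.55 CPM at 0 min, 7.84, 5.92 and 6.84 CPM at 30 min and 15.9, 17.8 and 14.3 CPM at 60 min. Gm38236 (chr2:68906003-68909231, 44.6 kb in) had 6.25, 6.86 and 6.61 CPM at 0 min, 5.82, 5.11 and 6.01 CPM at 30 min and 12.9, 12.6 and 11.0 CPM at 60 min. All 30 min libraries of Gm38236 lay below those of 0 min, a difference that edgeR did not call and from which nothing is read. Its 60 min mean was 2.15 times the 30 min mean. Among the other 4, Gm37651 at 100.8 kb changed by 0.60 ± 0.19 at 60 min against 30 min, a call at an edgeR adjusted p of 0.0454 that was lost under 10 of the alternatives, among them the removal of 7 of the 9 libraries in turn (adjusted p = 0.0507 to 0.225). Gm37747 at 127.9 kb changed by 0.23 ± 0.20 (adjusted p = 0.493) and Gm37666 at 152.2 kb by -0.35 ± 0.20 (adjusted p = 0.296). Gm38377 at 156.7 kb fell by 0.60 ± 0.12 on the log2 scale (adjusted p = 0.00314), with 4.94 ± 0.921 CPM at 60 min and 7.7 ± 0.334 CPM at 30 min. The Cers6 gene count averaged 145 ± 1.2 CPM at 60 min and 140 ± 6.53 CPM at 30 min and was not called (log2 0.09, adjusted p = 0.121).

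Dock10, Dst and Etv6 each held a locus of the 12 with the highest 60 min CPM, and each is a long gene whose own count was not called at 60 min against 30 min. Gm38062 (chr1:80728809-80730664), 27.9 kb into Dock10, had 4.21, 4.79 and 4.83 CPM at 0 min, 5.82, 5.57 and 5.39 CPM at 30 min and 16.5, 13.4 and 14.2 CPM at 60 min. Gm37354 (chr1:33922455-33924838), 14.2 kb into Dst, a linker of the cytoskeleton, had 9.97, 11.1 and 11.7 CPM at 0 min, 11.6, 10.9 and 10.1 CPM at 30 min and 26.2, 23.8 and 23.7 CPM at 60 min. Gm43984 (chr6:134084601-134087464), 48.9 kb into Etv6, an ETS-family repressor, had 8.3, 10.4 and 10.0 CPM at 0 min, 12.9, 10.1 and 9.88 CPM at 30 min and 15.8, 17.7 and 16.5 CPM at 60 min. The first 2 were more than 2 times above their 30 min mean, at 2.63 and 2.26, and Gm43984 sat near the limit of the rule at 1.52. Their hosts changed by 0.10 (Dock10, edgeR adjusted p = 0.0616), 0.06 (Dst, adjusted p = 0.428) and 0.10 (Etv6, adjusted p = 0.117) on the log2 scale at 60 min against 30 min. Dock10 passed without 0 min replicate 2 (adjusted p = 0.0453) and with a minimum count of 50 (adjusted p = 0.0337). In Dock10, where other loci were likewise left out of the 61 by their values, A630081D01Rik at 9.5 kb rose at 30 min against 0 min by 0.55 ± 0.14 (adjusted p = 0.0239; 0.0882 to 0.104 when the second 0 min or the first 30 min library was left out) and at 60 min against 30 min by 1.11 ± 0.13 (adjusted p = 2.81e-05). Gm37645 at 89.0 kb had 14.9 ± 2.43 CPM at 60 min and 5.89 ± 0.715 CPM at 30 min, a rise of 1.38 ± 0.12 (adjusted p = 1.93e-06).

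Gm20236 and Gm37094 had the same values in every library and count as 1 source. Gm20236 (chr14:69277601-69282140) lies 3.0 kb into Slc25a37, the mitochondrial iron importer mitoferrin, and Gm37094 (chr14:69495851-69500390) lies at the same distance into the predicted coding gene Gm16867. Each had 19.0, 18.3 and 18.7 CPM at 0 min, 20.9, 17.3 and 18.5 CPM at 30 min and 37.5, 34.4 and 37.2 CPM at 60 min. Their transcripts are 4540 bases long with 0 differing bases, so reads cannot be assigned to either copy, and the first 60 bases are given to show this.
Gm20236, chr14:69282081-69282140, minus strand: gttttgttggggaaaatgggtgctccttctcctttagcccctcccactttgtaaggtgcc
Gm37094, chr14:69500331-69500390, minus strand: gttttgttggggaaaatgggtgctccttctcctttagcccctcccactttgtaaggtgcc
Their nearest genes were counted apart: Slc25a37 rose at 60 min against 30 min by 0.39 ± 0.04 (edgeR adjusted p = 1.29e-05), with 98.0 ± 4.23 CPM at 60 min and 76.8 ± 3.41 CPM at 30 min. Gm16867 averaged 30.7 ± 3.88 CPM at 60 min and 29.0 ± 2.55 CPM at 30 min and was not called (log2 0.12, adjusted p = 0.444).

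Loci in or near Creb5, Parp14 and Zfp263 also had some of the largest ratios of the 60 min to the 30 min mean. Their nearest genes rose at 60 min against 30 min, as Rbm47 did for its pair of loci. The Camk2d pair ranked high too, but Camk2d itself was not called in that comparison (log2 0.04, edgeR adjusted p = 0.591). Gm44080 (chr6:53667770-53669983), 380.5 kb into Creb5, a transcription factor of the CREB and ATF family, had 0.558, 0.321 and 0.772 CPM at 0 min, 0.697, 0.595 and 0.615 CPM at 30 min and 3.48, 3.95 and 4.15 CPM at 60 min, a ratio of 6.07. Creb5 averaged 55.5 ± 1.81 CPM at 60 min and 19.3 ± 2.91 CPM at 30 min and rose by 1.57 ± 0.09 (edgeR adjusted p = 5e-08), the largest change among the nearest genes. Gm49730 (chr16:35866179-35867951), overlapping an exon of Parp14, an ADP-ribosyltransferase known from the interferon response, had 0.372, 0.643 and 0.168 CPM at 0 min, 0.418, 0.315 and 0.507 CPM at 30 min and 2.27, 1.58 and 1.84 CPM at 60 min, a ratio of 4.59. Parp14 rose by 0.40 ± 0.07 (adjusted p = 0.00186). Gm41409 (chr16:3770454-3785729), a spliced lincRNA downstream of the zinc-finger gene Zfp263, had 0.409, 0.5 and 0.369 CPM at 0 min, 0.488, 0.49 and 0.253 CPM at 30 min and 1.69, 1.15 and 1.19 CPM at 60 min. Zfp263 had 160, 142 and 145 CPM at 60 min, 84.4, 69 and 72 CPM at 30 min and 47.1, 48.6 and 52.3 CPM at 0 min. It rose at both steps, by 0.63 ± 0.07 at 30 min against 0 min (adjusted p = 2.6e-05) and by 1.03 ± 0.07 at 60 min against 30 min (adjusted p = 1.25e-07). Gm41409 had to be near level over the first step to be taken. It rested there on 36 counts at 0 min and 35 at 30 min over the 3 libraries, so its first step is not set against that of Zfp263.

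B230216N24Rik is a transcript of up to 4 exons on the same strand as Pam, the enzyme that amidates peptide hormones, and shares exon bases with it. It had 3.8, 4.07 and 4.96 CPM at 0 min, 3.77, 3.75 and 3.11 CPM at 30 min and 10.2, 9.14 and 10.5 CPM at 60 min. The 30 min libraries of B230216N24Rik lay just below those of 0 min, a difference that edgeR did not call. Pam rose at 60 min against 30 min by 0.55 ± 0.06 (edgeR adjusted p = 1.15e-05). RefSeq gave at least 1 promoter on the same strand for 6 of the 61 loci. Each promoter was searched on both strands for the AP-1 letters TGANTCA, for the NF-kappaB consensus and for the TATA-box letters TATAAA. A gene was counted when any of its promoters, all of the same length, held the motif. The AP-1 letters were held by 2 of the 6 loci (B230216N24Rik and 5033421B08Rik) and by 8.97% of all 27025 genes with a promoter. The NF-kappaB consensus was held by 2 (2900089D17Rik and 1700065D16Rik) and by 5.14% of all genes; this form of the motif replaced a stricter one, tried first, that none of the 6 loci's promoters held. The TATA-box letters were held by 1 (Gm14221) and by 15.7% of all genes. The B230216N24Rik promoter (RefSeq, GRCm38.p6) is printed because it belongs to the most counted of the 2 loci with the AP-1 letters, shown in capitals near the RefSeq start site. This promoter lies inside the GENCODE locus (chr1:98031116-98057680, minus strand) and not at the start annotated there.
B230216N24Rik, chr1:98047744-98048043, minus strand: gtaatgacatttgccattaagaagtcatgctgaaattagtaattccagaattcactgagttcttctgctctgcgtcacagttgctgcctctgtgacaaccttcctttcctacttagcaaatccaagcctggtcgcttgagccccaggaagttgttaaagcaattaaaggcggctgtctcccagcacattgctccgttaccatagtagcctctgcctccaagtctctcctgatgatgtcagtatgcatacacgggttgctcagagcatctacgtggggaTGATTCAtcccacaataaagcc

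Pairs of loci with a shared nearest gene also stood in Efl1, Ccdc15, Plxna2 and Kansl1l and opposite Rbm48. In Efl1, a GTPase of ribosome maturation, Gm44916 had 3.57, 3.5 and 3.69 CPM at 0 min, 3.17, 4.1 and 3.58 CPM at 30 min and 6.65, 6.84 and 7.18 CPM at 60 min. Gm45807 in the same gene had 1.37, 2.11 and 1.62 CPM at 0 min, 2.05, 1.79 and 2.38 CPM at 30 min and 4.66, 4.9 and 4.29 CPM at 60 min. Both were clear of the 30 min libraries at 60 min, and none of the 9 counts of Gm45807 was whole, as happens where reads are shared among genes. Efl1 rose by 0.26 ± 0.04 at 60 min against 30 min (edgeR adjusted p = 0.00053). In Ccdc15, a coiled-coil gene, Gm47652 had 2.87, 2.82 and 3.29 CPM at 0 min, 2.13, 2.87 and 2.28 CPM at 30 min and 4.89, 4.97 and 3.85 CPM at 60 min. Its partner Gm47643 had 1.94, 1.82 and 1.71 CPM at 0 min, 1.64, 2.21 and 1.59 CPM at 30 min and 3.31, 3.22 and 3.29 CPM at 60 min. Ccdc15 rose by 0.30 ± 0.07 (adjusted p = 0.0127), a call that was lost when the second 30 min or the first or the third 60 min library was left out (adjusted p = 0.0529 to 0.0711).

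In Plxna2, a receptor for semaphorins, Gm37783 had 1.94, 1.61 and 1.24 CPM at 0 min, 1.99, 1.75 and 1.23 CPM at 30 min and 3.69, 3.68 and 4.45 CPM at 60 min. Gm37674 had 1.19, 1.79 and 0.939 CPM at 0 min, 1.85, 1.26 and 1.7 CPM at 30 min and 4.14, 2.7 and 2.96 CPM at 60 min. Plxna2 rose with them by 0.34 ± 0.06 at 60 min against 30 min (edgeR adjusted p = 0.00117), and so did the other tested locus in it, Gm38036, by 1.00 ± 0.15 (adjusted p = 0.000243). In Kansl1l, a relative of a subunit of a histone acetyltransferase complex, Gm38387 at 45.7 kb had 0.893, 1.29 and 1.34 CPM at 0 min, 1.81, 1.19 and 0.905 CPM at 30 min and 1.93, 2.63 and 2.4 CPM at 60 min. Gm37570 at 48.8 kb had 1.19, 1.32 and 1.38 CPM at 0 min, 1.36, 0.91 and 1.27 CPM at 30 min and 3.1, 2.43 and 2.8 CPM at 60 min. Of the loci in Kansl1l that the rule left out, Gm37285 at 16.8 kb rose at 30 min against 0 min by 1.47 ± 0.29 (adjusted p = 0.00465) and was level between 60 and 30 min (1.92 ± 0.145 CPM at 60 min and 1.97 ± 0.725 CPM at 30 min). 6820402A03Rik at 21.3 kb rose at 30 min against 0 min by 1.06 ± 0.10 (adjusted p = 8.09e-06), with a log2 change of -0.24 (adjusted p = 0.116) at 60 min against 30 min. Kansl1l itself rose at 30 min against 0 min by 0.38 ± 0.08 (adjusted p = 0.0127; 0.0522 without 0 min replicate 3) and was not called at 60 min against 30 min (log2 0.20, adjusted p = 0.119).

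On the strand opposite Rbm48, a factor of the minor spliceosome, stood the only locus of the 61 classed as coding. 1700109H08Rik had 8.78, 9.75 and 9.23 CPM at 0 min, 11.7, 10.1 and 9.59 CPM at 30 min and 14.7, 15.7 and 17.3 CPM at 60 min. 2510017J16Rik had 3.09, 2.86 and 2.62 CPM at 0 min, 3.1, 2.66 and 2.97 CPM at 30 min and 4.58, 4.51 and 4.35 CPM at 60 min. Rbm48 was not called in any comparison, with 11.3 ± 0.384 CPM at 60 min, 10.9 ± 1.52 CPM at 30 min and 11.6 ± 1.17 CPM at 0 min. For the 8 loci whose exons overlap an exon on the opposite strand, 1700109H08Rik among them, reads could be told apart only if the counting used strand, which is not given in the sources used here.

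**Figure D3:**
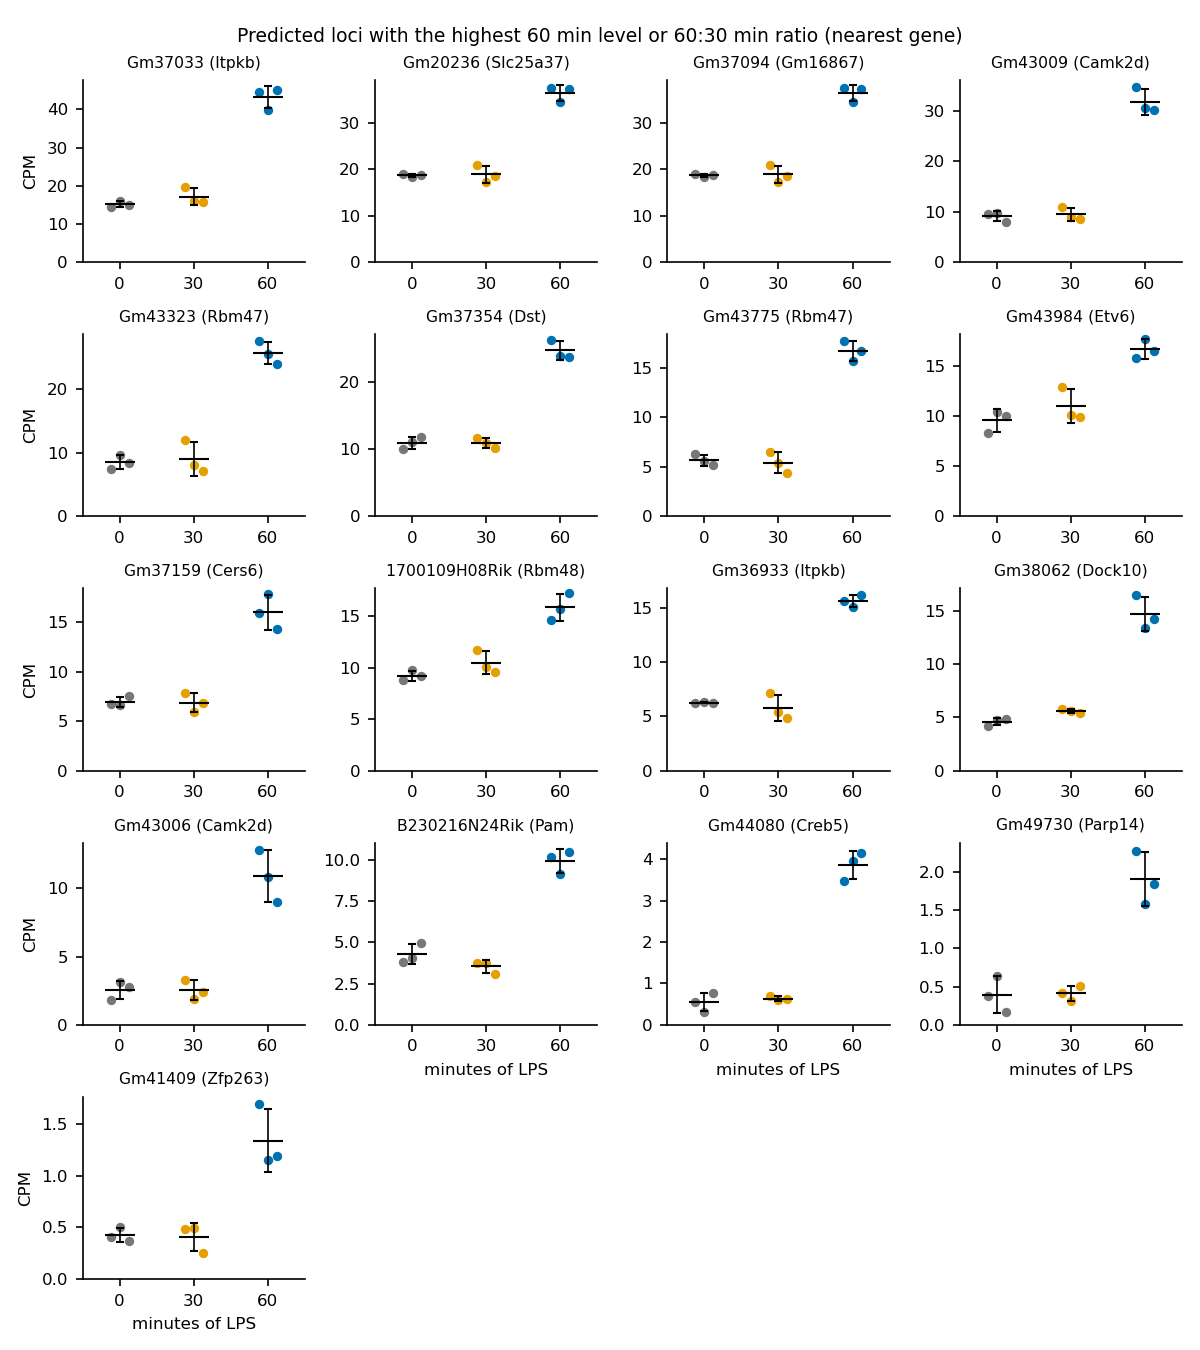
CPM (plain library totals, vertical axis from 0) against minutes of LPS for the 17 loci with the highest 60 min CPM or the largest ratio of the 60 min to the 30 min mean. Points are the 3 libraries of a time, and lines with bars give mean and SD. In each panel the 3 points of 60 min lie above the other 6, from Gm37033 at 43.2 CPM on average to Gm41409 at 1.34 CPM.

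The nearest protein-coding genes were not used to choose the loci, and their changes were tested. They are not independent of the loci, since 47 of the 61 overlapped their nearest gene on the same strand. For 7 of these the overlap included an exon, so locus and gene may share reads. Of the 51, 50 were tested; Slc7a15 was too low. At 60 min against 30 min, edgeR called 23 of the 50 higher (46.0%) and 0 lower at an adjusted p under 0.05, with 33 higher and 0 lower at an unadjusted p under 0.05, and DESeq2 and limma-voom each called 23 higher and 0 lower. The same comparison called 8.87% of all genes higher and 7.65% lower. Among 1769 nearest coding genes of the other tested predicted loci it called 9.78% higher and 8.37% lower. The median log2 change of the 50 genes was 0.15, against 0.01 for the 1769 genes. After Creb5 and Zfp263 came Stx6, a SNARE protein of the Golgi and endosomes, which rose by 0.65 ± 0.04 (edgeR adjusted p = 7.36e-08; 51.7 ± 0.449 CPM at 60 min and 34.0 ± 0.776 CPM at 30 min). Ngly1, which removes sugar chains from misfolded glycoproteins, rose by 0.56 ± 0.09 (adjusted p = 0.000464; 16.9 ± 0.647 CPM at 60 min and 11.8 ± 0.848 CPM at 30 min). The calls of Ankrd28, Nfxl1, Rbm25 and Zfp809 were lost without at least 1 of the libraries, all of them without 30 min replicate 2 (adjusted p = 0.0511 to 0.153 over the alternatives that ended a call).

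At 30 min against 0 min, edgeR called 5 of the 50 nearest genes higher (10.0%; Bri3, Creb5, Itpkb, Kansl1l and Zfp263) and 0 lower, with 7 higher and 1 lower at an unadjusted p under 0.05. DESeq2 called 6 higher and limma-voom 4 higher, both with 0 lower. In that comparison 6.33% of the 1769 genes were called higher. Bri3 (adjusted p = 0.0421) and Creb5 (adjusted p = 0.0348) lost these calls without any of several libraries, up to an adjusted p of 0.19 and 0.144. The count of 5 was 2 without the first 0 min or the first 30 min library and 3 without the first 60 min library. Of the 23 genes higher at 60 min against 30 min, 20 were not called at 30 min against 0 min. The same share among all genes was not counted, and the lack of a call does not show that a gene was level. Top1, among the 20 (edgeR adjusted p = 0.0531), was called higher at 30 min against 0 min under 5 alternatives (adjusted p = 0.0219 to 0.045). At 60 min against 0 min, 31 of the 50 were higher and 0 lower; 34 were higher at an unadjusted p under 0.05, DESeq2 called 28 and limma-voom 30, and 22 were higher with plain totals in edgeR. That comparison called 13.3% of all genes higher and 11.7% lower, and 16.5% of the 1769 genes higher. For the nearest genes of the 85 loci higher by 30 min, the share called higher was 36.6% of 71 at 30 min against 0 min and 46.5% at 60 min against 30 min. These comparisons share libraries at 30 min, and 2 nearest genes belong to both sets.

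**Figure D4:**
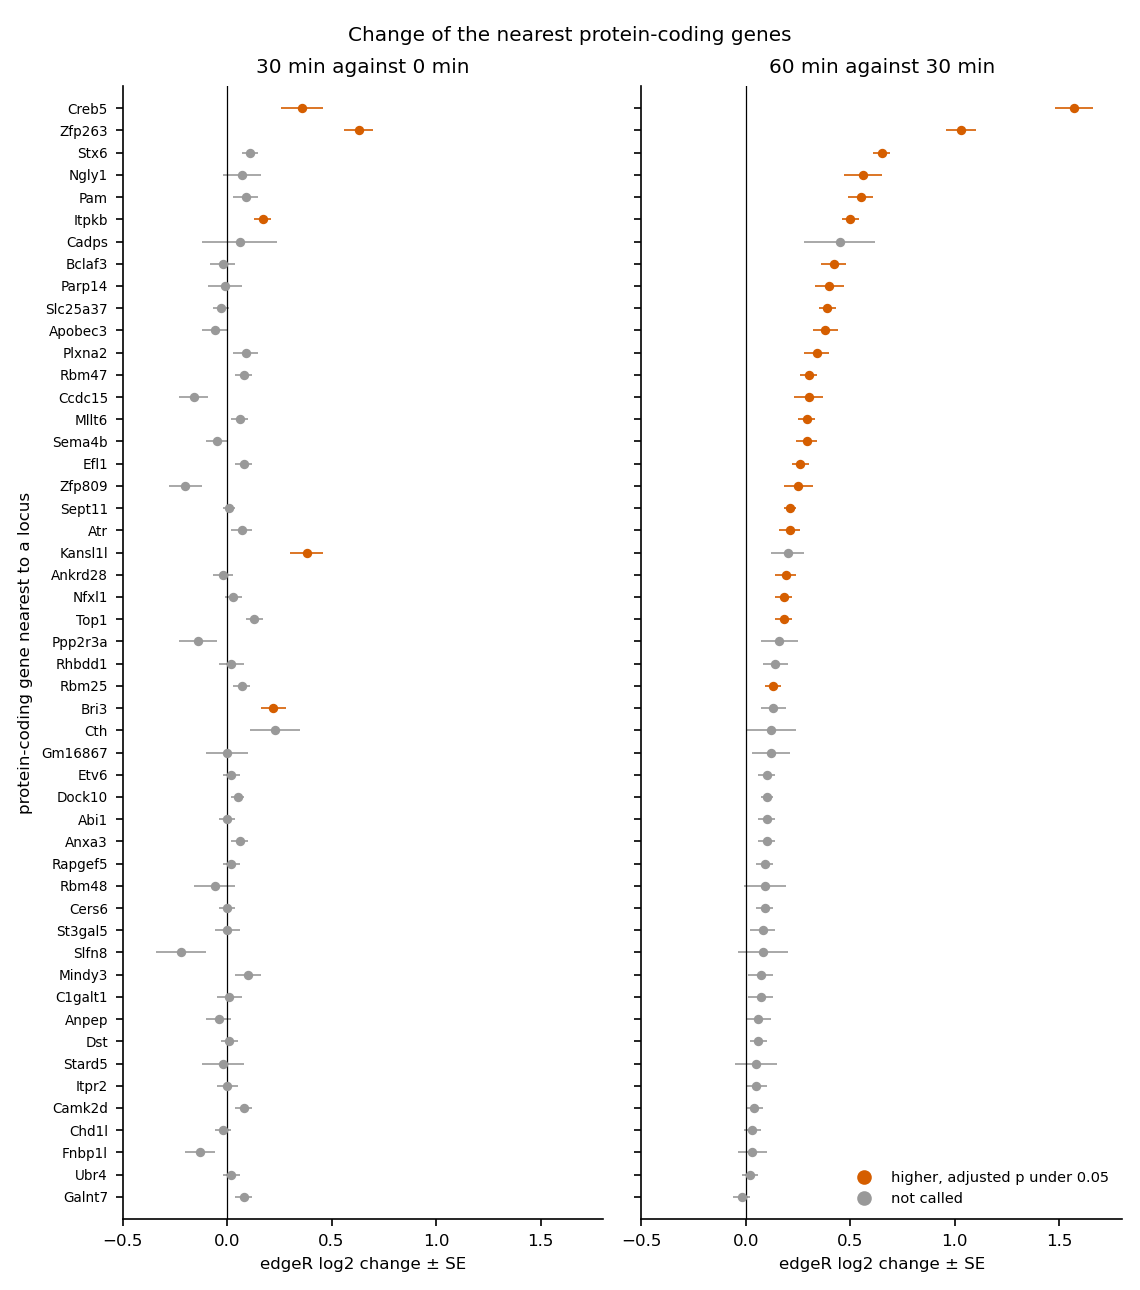
The edgeR log2 change with its SE (horizontal axis) for the 50 tested protein-coding genes nearest to the 61 loci, at 30 min against 0 min on the left and at 60 min against 30 min on the right, ordered by the right panel. Orange points are genes called higher at an adjusted p under 0.05: 5 on the left and 23 on the right.

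The same-strand hosts were also counted on their own. Among the 38 same-strand hosts, 17 (44.7%) were higher at 60 min against 30 min, while 8.01% of the 811 same-strand hosts of the other tested predicted loci were higher and 7.64% lower. The other 21 hosts, Camk2d, Cers6, Dst and Galnt7 among them, were not called in that comparison. Each held a locus at least 1.5 times above its 30 min mean, as the rule required. At 60 min against 0 min, 24 of the 38 hosts (63.2%) were higher, some of those 21 among them. Of the 811 other hosts, 15.7% were higher there and 10.5% lower. A gene count does not show the unspliced transcript apart, and whether the host gave the reads was not tested. Among the 12 nearest genes on the opposite strand or without overlap, 6 were higher. In such bulk libraries, more RNA per cell and more cells with the RNA cannot be told apart.

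In 14 of the hosts, 28 other predicted loci were tested, a set put together after the values had been seen. Of these, edgeR called 12 higher and 1 lower at 60 min against 30 min, and 5 higher and 0 lower at 30 min against 0 min (8 and 2 at an unadjusted p under 0.05; DESeq2 and limma-voom also called 5 and 0). Of all genes tested, 8.87% were called higher and 7.65% lower at 60 min against 30 min. At 30 min against 0 min, 4.84% of all genes were called higher and 3.35% lower. Without 30 min replicate 1, 3 in place of 5 were higher at 30 min against 0 min, and 1 was lower there without 30 min replicate 2 or without 60 min replicate 1. The rule had been applied to these loci as well and had left them out by their values at the same times, so the counts are a description and nothing is read from where in the host the called loci lie.

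Galnt7, which starts mucin-type sugar chains, held 4 of these loci. The locus taken, 4930412F12Rik, lies 0.7 kb from its start and was near level over the first 30 min, as the rule required. Gm45358 at 9.2 kb and Gm19269 at 12.9 kb had log2 changes of -0.46 (edgeR adjusted p = 0.113) and -0.51 (adjusted p = 0.0919) at 30 min against 0 min. Both were called lower there under 2 of the alternatives each: without a filter on low counts or without 60 min replicate 1 for Gm45358 (adjusted p = 0.00771 to 0.0398), and without a filter or without 30 min replicate 2 for Gm19269 (adjusted p = 0.0362 to 0.0376). They then rose at 60 min against 30 min by 1.03 ± 0.16 (adjusted p = 0.000409) and 1.02 ± 0.17 (adjusted p = 0.000579). Further in, Gm45360 at 25.5 kb changed by 0.64 ± 0.20 (adjusted p = 0.0444, up to 0.211 where the call was lost) and Gm45534 at 45.9 kb by 0.14 ± 0.12 (adjusted p = 0.492). The Galnt7 count averaged 125 ± 4.86 CPM at 60 min and 130 ± 4.59 CPM at 30 min and was not called (adjusted p = 0.842).

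**Figure D5:**
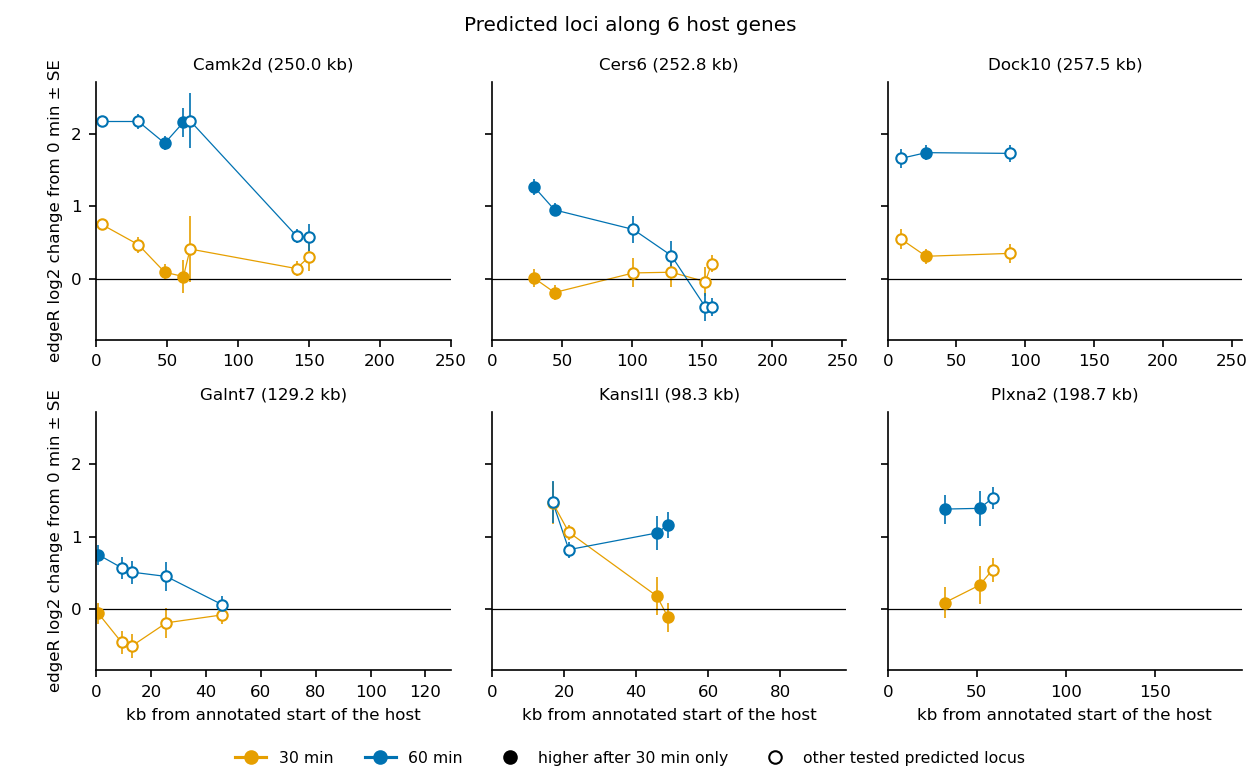
Log2 change from 0 min with its SE for predicted loci in 6 host genes, picked after their values were seen, against the distance in kb from the host's annotated start (horizontal axis, ending at the host's length). Orange is 30 min and blue is 60 min; filled points are loci of the 61 and open points are other tested predicted loci in the same host. In Camk2d and Kansl1l the open points nearest the start are high at 30 min. The filled points further in are near 0 at 30 min and above it at 60 min, as their choice requires. In Galnt7 the filled point nearest the start is near 0 at 30 min (-0.06). The open points further in, at 9.2 and 12.9 kb, are below 0 there (-0.46 and -0.51). The rule left the open points out by their values at these times, so nothing is read from position.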

How the data were processed

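RNA-seq of IMM cells at 0, 30 and 60 min of LPS was used, with 3 libraries per time and 9 in all. The authors' deposited table holds expected counts per gene from RSEM, not normalized. These counts came from RSEM 1.3.1 after trimming with cutadapt 1.18 and alignment with STAR 2.7.0f to build mm10, tools taken from the submitters' processing notes, which also name bcl2fastq 2.20, Picard 2.18.26 and, for comparisons, DESeq2. No source used here states their settings, annotation or strand mode. For 30 and 60 min the authors deposited DESeq2 comparison tables holding p-values, log2 fold changes and score columns (SE and test statistic), per the file headers. Only their log2 changes and p-values were used, as the authors' own. That their baseline is 0 min was read from the values.

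Counts were rounded before testing, since 5.04% to 5.32% of each library's values were fractional. CPM use plain totals. A single edgeR 4.0.16 quasi-likelihood fit (R 4.3.3) over all 9 libraries, with TMM factors of 0.9705 to 1.034 and filterByExpr defaults, kept 14246 genes; genes were called at a Benjamini-Hochberg adjusted p under 0.05 over all of them, two-sided. SEs were worked back from the F statistic. The labels call the libraries of a time biological replicates but name no separate cultures, so p-values measure the spread between these libraries. Any 2 libraries of the same time differed on average by more than sampling noise (mean chi-square per gene 5.02 to 18.6, median 0.87 to 1.39). All 55450 identifiers matched GENCODE M21 (GRCm38), which gave classes, positions (1-based) and transcript sequences; promoters are RefSeq's on GRCm38.p6. The nearest gene has the smallest gap between gene bodies, with ties settled by the longest overlap. Levels in every library are given for the 12 loci with the highest 60 min mean, the 8 with the largest 60 min to 30 min ratio and those sharing a nearest gene, and values for their nearest genes; other loci in the hosts and the examples Stx6, Ngly1 and Galnt7 were chosen after their values were seen. The loci, lists and tests were chosen with earlier results of these data known. Alternatives were plain totals, DESeq2 size factors, no filter, a minimum count of 50, DESeq2 1.42.0, limma-voom (limma 3.58.1), a replicate block, other definitions of the nearest gene, other limits of the rule, and leaving out each library. The form of the NF-kappaB motif was changed after a stricter one had been searched. The fits were tested on simulated data.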

Additional observations from a re-analysis of the deposited data

Results flagged for a closer look

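The change from 0 min differed between 60 and 30 min for 23 of 50 nearest coding genes and for 13 of 28 other predicted loci in the hosts. This was tested as 60 min against 30 min with edgeR at an adjusted p under 0.05. The same comparison called 8.87% of all genes tested higher and 7.65% lower. Groups of 3 libraries are too small for a check of single outlying libraries.

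Among the nearest genes, each higher at 60 min, the log2 change was 1.57 for Creb5, 1.03 for Zfp263, 0.65 for Stx6, 0.56 for Ngly1, 0.55 for Pam and 0.50 for Itpkb. It was 0.42 for Bclaf3, 0.40 for Parp14, 0.39 for Slc25a37, 0.38 for Apobec3, 0.34 for Plxna2 and 0.30 for both Rbm47 and Ccdc15. Smaller changes were measured for Mllt6 and Sema4b (0.29 each), Efl1 (0.26), Zfp809 (0.25), Atr and Sept11 (0.21 each), Ankrd28 (0.19), Nfxl1 and Top1 (0.18 each) and Rbm25 (0.13).

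The other loci in the hosts had been left out of the 61 by their values at the same times, so their changes are a description. Among them, the change was 1.77 for Gm43005, 1.70 for Gm43010, 1.42 for Gm43011 and 0.45 for Gm42515 in Camk2d. In Dock10 it was 1.38 for Gm37645 and 1.11 for A630081D01Rik, and in Galnt7 1.03 for Gm45358, 1.02 for Gm19269 and 0.64 for Gm45360. Gm38036 in Plxna2 changed by 1.00 and Gm43982 in Etv6 by 0.38. In Cers6, Gm37651 changed by 0.60 and Gm38377 by -0.60, the only one of the 13 lower at 60 min. The calls of Gm37651, Gm43982 and Gm45360 were lost without some libraries (adjusted p up to 0.225, 0.179 and 0.211), and the causes were not tested.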

How the results depend on the processing

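Of the nearest genes' and other loci's changes recomputed under all alternatives, 3126 kept their side of the threshold. A further 132 kept the direction but lost the call, 24 gained one, and no called change reversed. Direction was compared only where either fit made a call, so uncalled changes near 0 could switch sign among the 3126. Anpep did so at 60 min against 30 min, from 0.06 to -0.01 on the log2 scale without 60 min replicate 3. The count of the 61 loci depended on the limits: 118 with a 25% rise at 60 min in place of 50%, 26 with a 2-fold rise, 25 with a 30 min mean up to 1 time the 0 min mean, and 53 to 71 with a library left out (66 when the first 30 min library was left out, 56 of them shared). With TMM-scaled totals it was 68, of which 59 were shared. Nearest genes called at 30 min against 0 min numbered 5, but 3 with plain totals, 8 (6 higher and 2 lower) without a filter and 2 to 5 with a library left out, the lowest when the first 0 min or the first 30 min library was left out, and 3 when the first 60 min library was; the cause was not tested. At 60 min against 30 min 18 to 25 were called with a library left out, and at 60 min against 0 min 24 to 29. Taking only the 5 nearest genes that do not overlap their locus left 4 called at 60 min against 30 min, 4 at 60 min against 0 min and 1 at 30 min against 0 min, since fewer genes remain. With the nearest gene set by the distance between starts, 49 genes were tested. Of these, 19 were higher and 1 lower at 60 min against 30 min, and 27 higher and 1 lower at 60 min against 0 min.

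With a library left out, 1651 to 2497 genes were called at 60 min against 30 min, 2804 to 3488 at 60 min against 0 min and 790 to 1194 at 30 min against 0 min. Plain totals moved the split of calls: 1005 higher and 1672 lower at 60 min against 30 min, in place of 1263 and 1090; 1313 and 3048 at 60 min against 0 min, in place of 1891 and 1671; 551 and 649 at 30 min against 0 min, in place of 689 and 477. Replicate numbers did not pair the libraries (correlations of same-numbered deviations -0.0637 to 0.00609); with the number as a replicate block 2108, 3234 and 967 genes and 23, 25 and 4 nearest genes were called in the 3 comparisons, in the same order.

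At under 2 CPM a locus rested on few counts a library, so small changes over the first 30 min were not detectable there.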
